A study of Mus musculus with 9 samples.

Results

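The genes described here build the junctions between epithelial cells: tight junctions, desmosomes and adherens junctions. They were taken by name from an FPKM table (fragments scaled by transcript length and by the depth of the library) of mouse skin, as all claudins (Cldn and a number), desmogleins (Dsg), desmocollins (Dsc), plakophilins (Pkp) and ZO scaffold genes (Tjp), with Dsp, Jup, Ppl, Evpl, Perp, Cdsn, Ocln, Cdh1, Cdh3 and Ctnna1. The rule found 49 of 55382 genes and used no measured value. RNA had been sequenced from skin of 3 groups, 3 libraries each, to compare bleomycin-induced fibrosis, a model of scleroderma, with and without vesicle treatment. The EXO group had received 1 mg/mL bleomycin, 100 µL under the shaved skin of the back for 28 days, and then 15 µg of exosomes (membrane vesicles) from bone marrow mesenchymal stem cells, with a treatment period of 7 days. The BLM group had received the same bleomycin course without exosomes, and the NORMAL group had received PBS in place of bleomycin. The methods of the study name female C57BL/6 mice and PBS for model mice left without vesicles, while the labels give the treatment of BLM as none. The sources differ on how long after treatment the skin was taken. Separate mice for separate libraries are not stated, and p-values therefore measure the spread between these libraries, which may be technical in part. Libraries are named by group and number, and 3 stands for the title without a number.

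In epithelia, tight junctions seal the space between cells through claudins and occludin, which are held by the ZO scaffolds. Desmosomes join the keratin filaments of neighbouring cells: desmogleins and desmocollins bridge the gap, plakoglobin (Jup) and plakophilins sit at the inner face, and desmoplakin (Dsp) reaches the keratins. Adherens junctions join actin networks through classical cadherins and catenins. In epidermis these genes are used mostly by keratinocytes, and different members are used in basal, upper and hair follicle layers.

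All 7 basal and all 8 suprabasal keratinocyte markers were detected in every library, as the label of skin requires, and skeletal muscle genes were also abundant (summed FPKM of 10 genes from 7805 to 38714 in EXO, 5968 to 10394 in BLM and 8480 to 58613 in NORMAL). Keratinocyte RNA differed widely between libraries of the same group. Summed FPKM of the basal markers ranged from 6631 to 11343 in EXO, from 1054 to 3986 in BLM and from 1054 to 8457 in NORMAL, lowest in BLM2 and NORMAL2. Every EXO sum thus lay above every BLM sum, while NORMAL overlapped with both. Sums of the suprabasal markers overlapped between all groups. In such bulk samples, fewer cells of a type and less RNA per cell cannot be told apart. The table gives no counts and no depth, so no counting error can be given. A level is an FPKM value, and a change is a difference of log2(FPKM + 1), which understates changes of low genes.

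Junction genes were led by a single transcript. Perp, which encodes a tetraspan protein of desmosomes, averaged 566 FPKM over all 9 libraries, followed by the plakophilins Pkp3 (77.8 FPKM) and Pkp1 (77.0 FPKM), Dsp (62.1 FPKM) and E-cadherin, Cdh1 (44.6 FPKM). Of all 49 genes, 27 had a median above 1 FPKM and 15 above 10 FPKM. Tests were limited to genes with 1 FPKM or more in 3 or more libraries, which held for 31 of them and for 14254 of all 55382 genes. The other 18 were 15 claudins, Dsc1, Dsg1c and Dsg4. Of these, 14 were below 1 FPKM in every library, and Cldn6 and Cldn13 were listed at 0 throughout. Cldn11, Cldn14, Cldn15 and Cldn7 reached 1 FPKM in 1 or 2 libraries, with maxima of 1.16, 1.48, 1.96 and 1.23 FPKM.

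**Figure D1:**
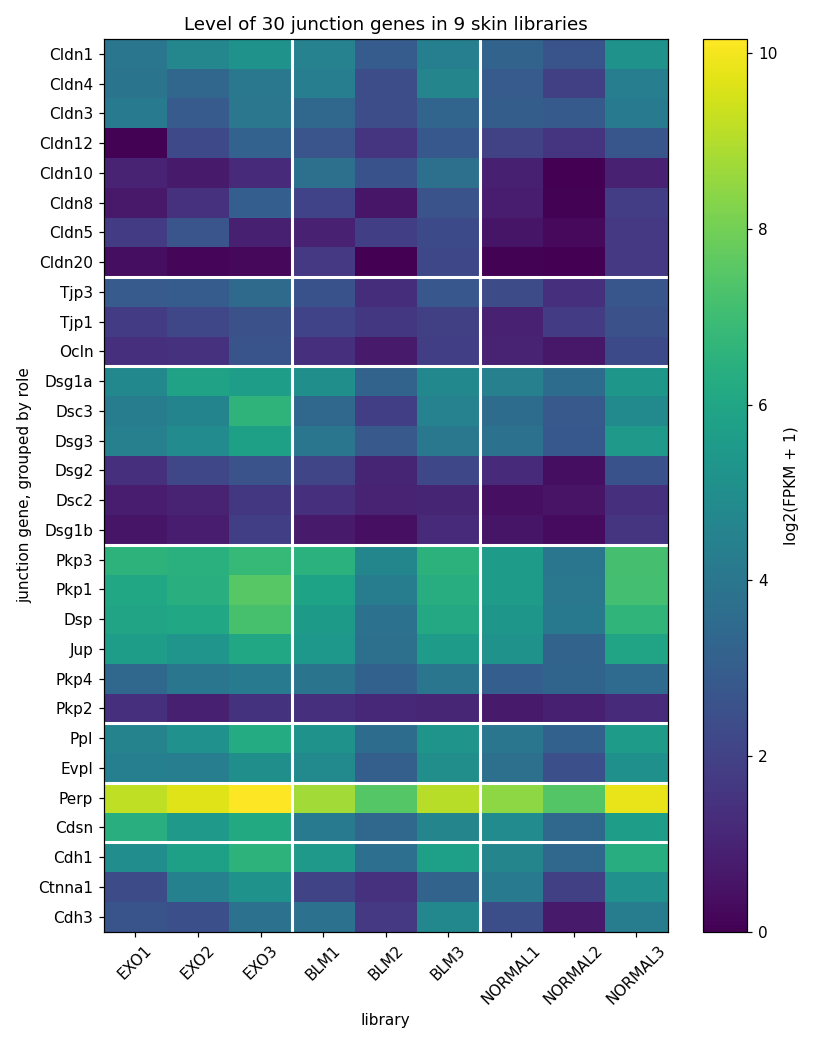
Level of 30 of the 31 junction genes that passed the filter, as log2(FPKM + 1) by colour, in 3 EXO, 3 BLM and 3 NORMAL libraries (columns), with white lines between groups and between roles. BLM2 and NORMAL2 are dark in most rows, EXO3 and NORMAL3 are bright, and Cldn10 stands out in all 3 BLM libraries.

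Most of these genes moved together across libraries, whatever the group. BLM2 and NORMAL2 were the 2 lowest libraries for 24 of the 31, NORMAL2 was the lowest for 18, and EXO3 was the highest for 19. The median level over the 31 genes, as log2(FPKM + 1), was 3.41, 3.37 and 4.07 in EXO1 to EXO3, 3.75, 2.39 and 3.98 in BLM1 to BLM3, with 3.02, 1.93 and 4.31 in NORMAL1 to NORMAL3. The first principal component held 72.0% of their variance over the 9 libraries. The median correlation over 465 gene pairs was 0.73, a description of 9 libraries in which keratinocyte RNA varied, with no test. The genes least like the others were Cldn10 (median r with the other 30 genes 0.18), Cldn5 (0.28), Cldn20 (0.44), Cldn12 (0.48) and Pkp2 (0.48).

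The group difference that stood out was in a single claudin. Cldn10 averaged 0.983 FPKM in EXO, 9.94 FPKM in BLM and 0.583 FPKM in NORMAL, while the other 30 genes, barrier claudins, desmosomal and adherens genes alike, overlapped between BLM and NORMAL. Of all genes, 2.87% were higher and 7.52% lower in BLM than in NORMAL without overlap. In EXO skin, Cdsn, Perp, Dsg3 and Tjp3 were higher in every library than in any BLM library, or 12.9% of the 31 beside 11.4% of all genes. None of these differences passed the threshold in the model of all 9 libraries without a block (limma on log2(FPKM + 1), Benjamini-Hochberg adjusted p below 0.05 over 14254 genes). In BLM against NORMAL the junction genes called were 0 of 31, beside 0.014% of all genes tested. In EXO against BLM it was 0 of 31, also beside 0.014%. In EXO against NORMAL it was 0 of 31, beside 0% of all genes. At an unadjusted p below 0.05 there were 1 junction gene (Cldn10), 3 (Cdsn, Cldn10 and Dsc3) and 1 (Cdsn) in these comparisons, or 3.23%, 9.68% and 3.23%, beside 7.37%, 6.84% and 2.33% of all genes. Libraries that share a number tended to deviate together, so the number was also used as a block, although no label states such a pairing. At an unadjusted p below 0.05 with that block there were 2, 10 and 9 junction genes (6.45%, 32.3% and 29.0%, beside 15.3%, 15.5% and 7.60% of all genes). Most junction genes moved together across libraries, so these counts are not made of separate results and remain a description. With the block and adjustment 1 junction gene, Cldn10, passed in BLM against NORMAL, beside 0.421% of all genes, and the same gene passed in EXO against BLM, beside 0.0772%. Cldn10 met the filter through BLM, the group where it is high, since outside BLM only EXO3 reached 1 FPKM, so the count is a description. With the block and no filter on low values, a setting chosen after seeing the data, it did not pass (limma, adjusted p = 0.212 in BLM against NORMAL and 0.206 in EXO against BLM). In EXO against NORMAL none of the 31 passed with the block, beside 0.021% of all genes.

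Another count took the thresholds of the study, an unadjusted p below 0.05 and a log2 change of more than 1 in size. In BLM against NORMAL it took 1 junction gene as higher (Cldn10, beside 2.88% of all genes) and 0 as lower (beside 3.02%). In EXO against BLM it took 2 as higher (Cdsn and Dsc3, beside 3.03%) and 1 as lower (Cldn10, beside 2.27%). In EXO against NORMAL it took 1 as higher (Cdsn, beside 1.32%) and 0 as lower (beside 0.393%). The last count asked whether the FPKM values of both groups overlapped. All 3 BLM values lay above all NORMAL values for 1 gene (Cldn10, beside 2.87% of all genes) and below them for 0 (beside 7.52%). All EXO values lay above all BLM values for 4 genes (Cdsn, Dsg3, Perp and Tjp3), or 12.9% beside 11.4% of all genes, and below them for 1 (Cldn10, beside 2.66%). All EXO values lay above all NORMAL values for 1 gene (Tjp3, beside 4.58%) and below them for 0 (beside 0.989%). Each rests on 4 genes or fewer, and none is a result about the junction genes as a group.

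When libraries were scaled to keratinocyte markers, the median change of the junction genes fell below 0 in EXO against BLM. In EXO against NORMAL it fell to about 0. Under the other scalings both medians stayed above 0. The median change of the 31 genes was 0.26 on the log2 scale in BLM against NORMAL, with 21 above 0, beside a median of -0.03 over all genes. In EXO against BLM it was 0.48 with 24 above 0, beside 0.22 over all genes. In EXO against NORMAL it was 0.81 with 29 above 0 (93.5%, beside 67.0% of all genes), and the all-gene median was 0.17. Both comparisons with BLM use the same BLM libraries. When each library was instead scaled to its own basal and suprabasal keratinocyte markers, by factors of 1.23 to 2.47 in EXO, 0.282 to 1.47 in BLM and 0.319 to 1.80 in NORMAL, the median became 0.30 in BLM against NORMAL, -0.36 in EXO against BLM (9 of 31 above 0) and -0.04 in EXO against NORMAL (13 of 31 above 0). Of the 10 genes counted with the block in EXO against BLM, Tjp3, Pkp1, Perp, Dsp and Dsg3 changed by 0.04 to 0.39 on that scale. Ctnna1, Cdsn and Dsc3 changed by 0.84 to 0.91, Cldn20 by -0.97 and Cldn10 by -3.02. Of all genes, 10.6% then lay above 0 in EXO against BLM, beside 29.0% of the 31. In EXO against NORMAL it was 10.1%, beside 41.9%. On that scale the medians of all genes were -0.01, -0.60 and -0.60. Single libraries also decided these medians: BLM against NORMAL gave 0.03 without BLM1 or without BLM3 and 0.64 without BLM2, while it gave 0.17 when NORMAL1 was left out, -0.25 when NORMAL2 was and 0.67 when NORMAL3 was. EXO against BLM gave 0.15 without BLM2, 0.27 without EXO3 and 0.82 without BLM3, and EXO against NORMAL gave 0.26 without NORMAL2 and 1.39 without NORMAL3.

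**Figure D2:**
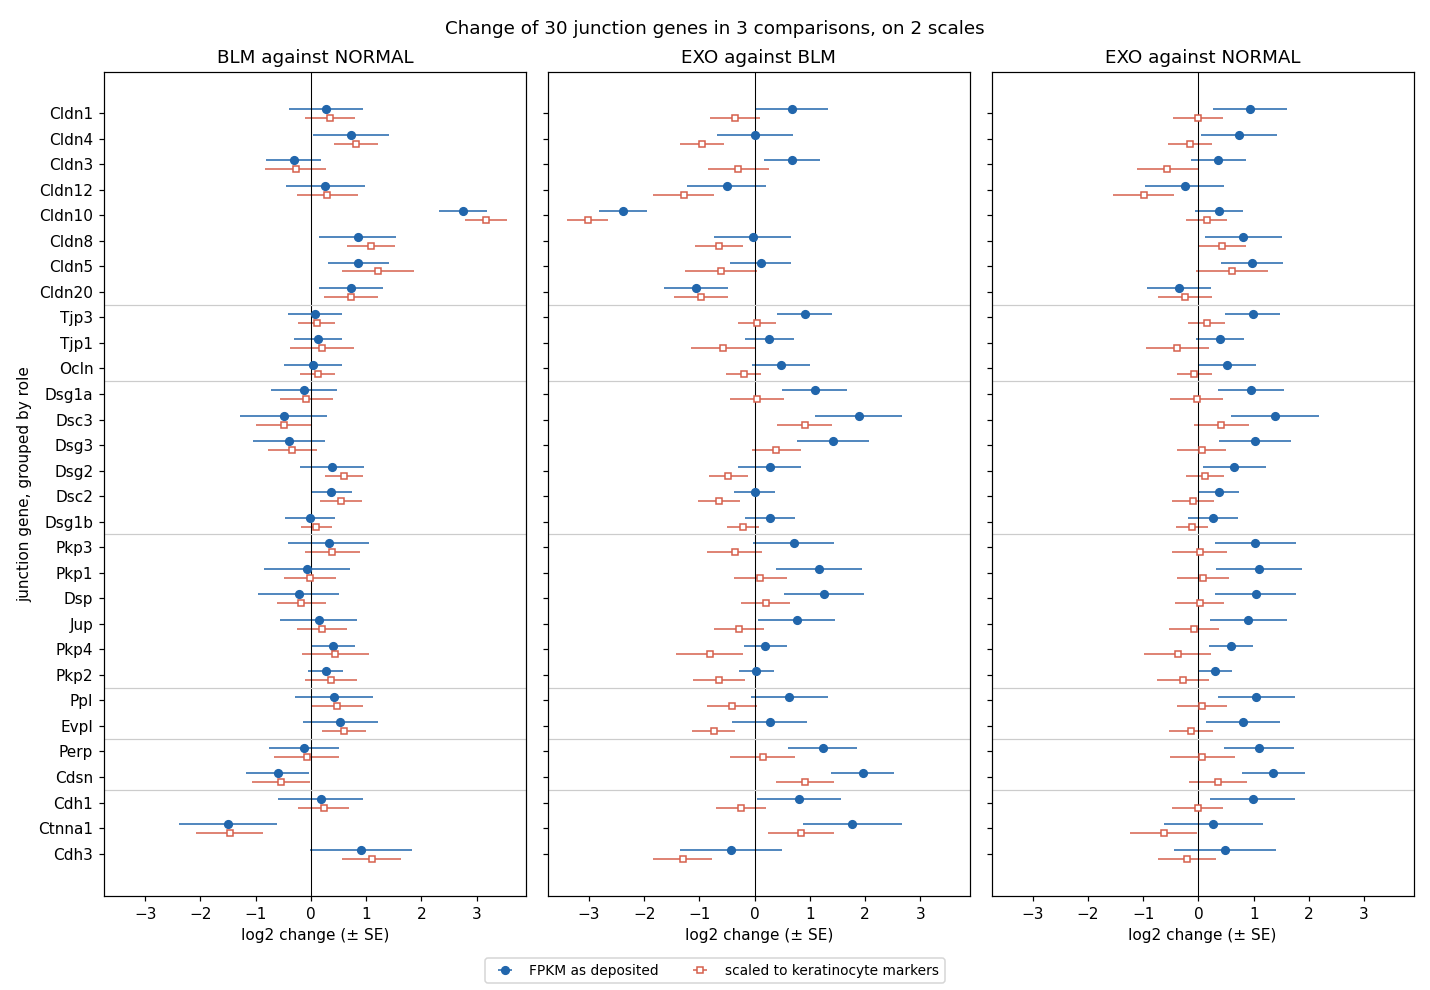
Log2 change (x axis, ± SE) of 30 of the 31 junction genes that passed the filter, grouped by role, in BLM against NORMAL, EXO against BLM and EXO against NORMAL, from FPKM as deposited (filled circles) and after scaling to keratinocyte markers (open squares). Cldn10 stands away from 0 on both scales in both comparisons with BLM, while most other genes of EXO skin move towards 0 or below it when scaled.

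Claudins, the sealing and pore-forming proteins of tight junctions, were the largest family, with 23 genes of which 8 passed the filter. Cldn10 was the only one of the 31 junction genes tested whose BLM values overlapped with neither other group. Of all genes, 2.87% had BLM above NORMAL and 2.66% had EXO below BLM without overlap. The share of all genes with both was not counted. Cldn10 (ENSMUSG00000022132, GRCm38 chr14:118787908-118875489, plus strand), which encodes a claudin of ion-selective pores and in human disease is linked to reduced sweating, had 0.94, 0.67 and 1.34 FPKM in EXO1 to EXO3 and 12.5, 4.87 and 12.5 FPKM in BLM1 to BLM3. The NORMAL libraries had 0.84, 0 and 0.91 FPKM. The lowest BLM library was thus above the highest of the other 6. The group means were 0.983 ± 0.337 FPKM in EXO, 9.94 ± 4.39 FPKM in BLM and 0.583 ± 0.506 FPKM in NORMAL (SD, n = 3 each).

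The log2 change of Cldn10 in BLM against NORMAL was 2.75 ± 0.43 (SE; limma, adjusted p = 0.0884), rank 9 of all genes by p, and with the replicate block the adjusted p was 0.0176. In EXO against BLM it was -2.38 ± 0.43 (limma, adjusted p = 0.173, and 0.0250 with the block). On FPKM as deposited and over all 9 libraries, Cldn10 thus passed the threshold in both comparisons with the block and the filter on low values, and in neither without the block or without the filter. EXO against NORMAL gave 0.37 ± 0.43 (limma, adjusted p = 0.997), with an interval from -0.59 to 1.32. Leaving out BLM2 gave 3.15 with an adjusted p of 0.0388 in BLM against NORMAL (limma), leaving out NORMAL3 gave 2.91 with 0.0214, and leaving out BLM1 gave 2.55 with 0.760. In EXO against BLM, leaving out NORMAL3, which entered only the spread and the filter there, gave an adjusted p of 0.0381 (limma), and leaving out BLM1 gave 0.900. Scaled to keratinocyte markers, Cldn10 stood at 0.767, 0.466 and 0.542 in the EXO libraries, at 11.4, 17.3 and 8.47 in the BLM libraries, and at 0.954, 0 and 0.506 in the NORMAL libraries, and BLM2 was then the highest library. On that scale the log2 change was 3.17 in BLM against NORMAL (limma, adjusted p = 0.0123) and -3.02 in EXO against BLM (0.0123). Only the BLM libraries reached 1 on that scale, so Cldn10 met the filter solely through the group where it is high. These p-values are therefore a description.

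Genes of the hair matrix, shaft and inner root sheath were also high in the BLM libraries. Summed FPKM of 13 such genes was 20.9, 9.87 and 15.1 in EXO1 to EXO3, 834, 164 and 987 in BLM1 to BLM3, with 7.18, 4.32 and 290 in NORMAL1 to NORMAL3. All BLM sums and that of NORMAL3 were far above the other 5. NORMAL3 exceeded BLM2 in this sum (290 against 164) but had 0.91 FPKM of Cldn10 against 4.87 in BLM2. The shaft keratins Krt34 and Krt81 were at 0 in all EXO libraries and in NORMAL1 and NORMAL2, and Krt27, Krt33a, Krt73 and Lef1 were at 0 in 1 or 2 libraries outside BLM. Krt34, Krt81 and Hoxc13 were highest in NORMAL3 (6.60, 6.60 and 37.4 FPKM, against at most 4.95, 4.86 and 34.8 FPKM in BLM). The other genes of the list were highest in BLM1 or BLM3. The part of the follicle in the Cldn10 difference was not tested.

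**Figure D3:**
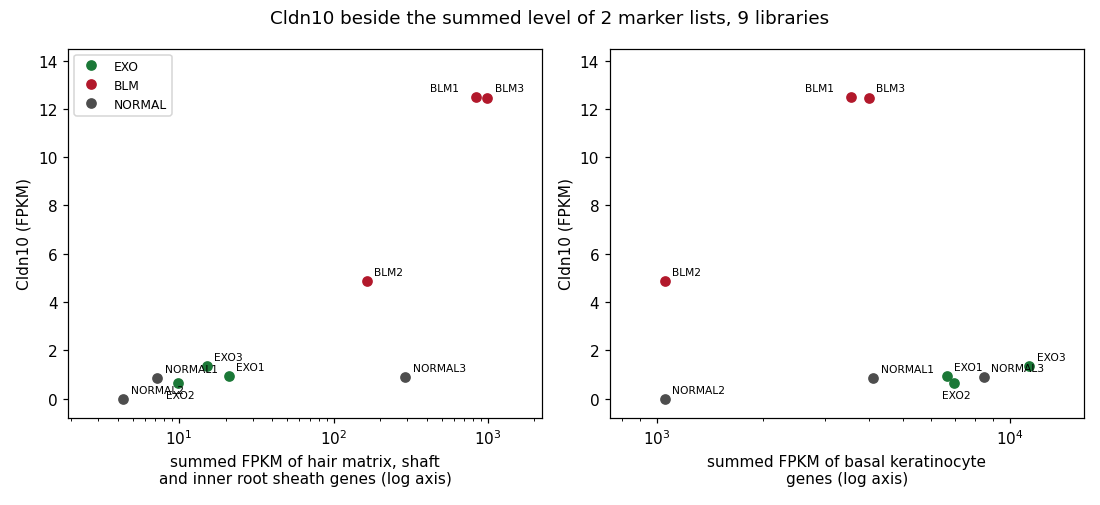
Cldn10 (y axis, FPKM) in 9 libraries beside the summed FPKM of hair matrix, shaft and inner root sheath genes (left, log axis) and of basal keratinocyte genes (right, log axis). BLM1 and BLM3 are high in Cldn10 and in hair genes, NORMAL3 is high in hair genes only, and BLM2 and NORMAL2 have almost the same basal sum but 4.87 and 0 FPKM of Cldn10.

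RefSeq gives Cldn10 a pair of starts on GRCm38.p6, and FPKM per gene do not tell which was used. Their sequences, from 250 bases before to 50 after each start, are shown because they differ in makeup. The upstream window (chr14:118787621-118787920, plus strand) has 36.0% G and C and 4 CpG, the downstream one (chr14:118854700-118854999, plus strand) has 72.0% and 27, and the quartiles over 32851 windows of RefSeq are 45.7% and 61.7%. The claudin Cldn4 is shown beside them (chr5:134946885-134947184, minus strand), with capitals for CACCTG or CAGGTG, the E-box read by Snail and Zeb repressors, which the Cldn10 windows lack.
Cldn10 upstream start: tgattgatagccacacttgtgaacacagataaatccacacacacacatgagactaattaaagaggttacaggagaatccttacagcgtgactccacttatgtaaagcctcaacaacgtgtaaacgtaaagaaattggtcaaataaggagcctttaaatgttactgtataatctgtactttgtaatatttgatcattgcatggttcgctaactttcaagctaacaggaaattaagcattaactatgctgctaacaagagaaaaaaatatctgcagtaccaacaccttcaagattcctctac
Cldn10 downstream start: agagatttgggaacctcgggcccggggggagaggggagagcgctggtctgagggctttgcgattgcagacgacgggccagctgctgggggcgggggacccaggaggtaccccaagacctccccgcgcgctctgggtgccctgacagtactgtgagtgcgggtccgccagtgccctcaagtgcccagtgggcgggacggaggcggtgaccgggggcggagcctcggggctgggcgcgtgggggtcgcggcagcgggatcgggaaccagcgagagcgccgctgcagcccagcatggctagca
Cldn4 start: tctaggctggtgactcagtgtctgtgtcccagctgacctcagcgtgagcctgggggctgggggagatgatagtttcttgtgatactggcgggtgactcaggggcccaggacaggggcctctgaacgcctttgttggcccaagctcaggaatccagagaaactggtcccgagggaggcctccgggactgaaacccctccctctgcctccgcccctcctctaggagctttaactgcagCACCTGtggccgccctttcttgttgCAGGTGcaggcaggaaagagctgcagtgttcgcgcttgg

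A start window was given for 26 of the 49 genes, 38 windows in all. The E-box (CACCTG or CAGGTG, each the reverse complement of the other) occurred in 13 of the 38 windows, from 10 genes, and in 20.2% of all 32851 windows. Windows of the same gene can overlap, and an Ocln site lies in both windows of that gene. AACCGGTT, the palindrome read by grainyhead-like factors, occurred in 0 of the 38 and in 0.146% of all. TATAAA on either strand occurred in 1 (Cldn2) and in 13.6% of all. A match describes letters only.

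The claudins of the epidermal barrier overlapped between the groups. In BLM skin Cldn10 was above Cldn3 in every library and above Cldn4 in BLM2. Cldn1, without which mice lose water through the skin and die, had 15.0, 24.8 and 35.6 FPKM in EXO1 to EXO3, 22.0, 6.85 and 19.9 FPKM in BLM1 to BLM3, and 8.36, 5.25 and 35.6 FPKM in NORMAL1 to NORMAL3. The groups overlapped, and the change was 0.27 ± 0.67 in BLM against NORMAL and 0.67 ± 0.67 in EXO against BLM (SE; limma, adjusted p = 0.983 and 0.869). Cldn3 and Cldn4 ranged from 6.53 to 17.3 and from 9.33 to 15.8 FPKM in EXO, from 4.25 to 9.43 and from 4.26 to 23.4 FPKM in BLM, and from 6.39 to 16.6 and from 2.75 to 19.4 FPKM in NORMAL. Within the summed FPKM of all 23 claudins, Cldn1, Cldn3 and Cldn4 together took 85.6%, 74.1% and 74.4% in EXO1 to EXO3, 65.4%, 57.7% and 60.3% in BLM1 to BLM3, with 75.7%, 78.4% and 80.6% in NORMAL1 to NORMAL3. Cldn10 took 1.74%, 1.22% and 1.50% in EXO, 16.1%, 18.3% and 14.4% in BLM, and 2.90%, 0% and 1.02% in NORMAL. In both shares the BLM values did not overlap with either other group, but Cldn10 is part of the sum behind the first share. Without Cldn10 in the sum, Cldn1, Cldn3 and Cldn4 took 87.2%, 75.1% and 75.5% in EXO, 77.9%, 70.7% and 70.4% in BLM, and 77.9%, 78.4% and 81.5% in NORMAL, and all groups overlapped. BLM and NORMAL did so only narrowly, through BLM1 (77.94%) and NORMAL1 (77.92%). All these shares were chosen after the values were seen and carry no test.

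Cldn5, the main claudin of blood vessels, was among the genes least like the other junction genes. It had 2.53, 5.47 and 0.88 FPKM in EXO1 to EXO3, 0.90, 2.74 and 3.84 FPKM in BLM1 to BLM3, and 0.48, 0.20 and 2.23 FPKM in NORMAL1 to NORMAL3. Summed FPKM of 10 endothelial genes was 21.9, 35.7 and 6.14 in EXO, 17.2, 29.9 and 36.6 in BLM, and 6.12, 9.09 and 20.9 in NORMAL. Within EXO and within BLM, Cldn5 had the same order of libraries as this sum, and in NORMAL it did not. Its change was 0.86 ± 0.56 in BLM against NORMAL and 0.11 ± 0.56 in EXO against BLM (SE; limma, adjusted p = 0.824 and 0.988).

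The other claudins past the filter were low. Cldn12 had 0.04 FPKM in EXO1 but 3.71 and 8.25 FPKM in EXO2 and EXO3, while BLM ranged from 1.95 to 5.93 FPKM and NORMAL from 1.93 to 5.60 FPKM. Cldn20 had 0.30, 0.10 and 0.15 FPKM in EXO1 to EXO3, 2.23, 0 and 3.66 FPKM in BLM1 to BLM3, and 0.05, 0 and 2.21 FPKM in NORMAL1 to NORMAL3. Its 3 libraries above 1 FPKM were those with the largest sums of hair genes, while BLM2 was at 0. Cldn8, a claudin also used in kidney tubules, ranged from 0.63 to 7.25 FPKM in EXO, from 0.53 to 5.12 FPKM in BLM and from 0.05 to 2.59 FPKM in NORMAL. Neighbouring claudin genes differed widely in level: Cldn16 lies 91.3 kb from Cldn1 and reached 0.04 FPKM at most, and Cldn17 lies 53.8 kb from Cldn8 and reached 0.02 FPKM. Exons of Cldn22 lie wholly within those of Wwc2 on the opposite strand, and its values, at most 0.40 FPKM, cannot be told apart from that gene where strand was not used in counting.

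Occludin and ZO-1 were expressed at a few FPKM. Ocln, a membrane protein of tight junctions, had 1.55, 1.74 and 5.20 FPKM in EXO1 to EXO3, 1.61, 0.68 and 2.66 FPKM in BLM1 to BLM3, and 0.96, 0.57 and 3.85 FPKM in NORMAL1 to NORMAL3. Tjp1, which encodes ZO-1, had 2.43, 3.46 and 4.68 FPKM in EXO, 3.17, 2.15 and 2.80 FPKM in BLM, and 0.92, 2.50 and 4.67 FPKM in NORMAL. In both genes the groups overlapped, and the changes in both comparisons with BLM lay between 0.03 and 0.48 (limma, lowest adjusted p 0.881, and 0.435 with the block).

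Tjp3, which encodes ZO-3, was higher in EXO than in both other groups in its values. It had 6.46, 6.73 and 10.4 FPKM in EXO1 to EXO3, against 4.92, 1.49 and 5.78 FPKM in BLM1 to BLM3 and 4.12, 1.56 and 5.53 FPKM in NORMAL1 to NORMAL3. Every EXO library was above every other library. The change was 0.90 ± 0.50 in EXO against BLM and 0.98 ± 0.50 in EXO against NORMAL (SE; limma, adjusted p = 0.774 and 0.997), which did not pass. Scaled to keratinocyte markers it was 0.04 and 0.15. Tjp3 shares 40 exonic bases with Apba3 on the opposite strand.

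Desmosomal cadherins, 9 genes within 643.6 kb of chromosome 18, were carried by 3 members: Dsg1a, Dsc3 and Dsg3. Dsg1a, the mouse counterpart of the desmoglein targeted in pemphigus foliaceus, had 25.8, 57.2 and 50.9 FPKM in EXO1 to EXO3, 32.3, 8.45 and 26.0 FPKM in BLM1 to BLM3, and 20.7, 11.2 and 41.0 FPKM in NORMAL1 to NORMAL3. Its groups overlapped, with a change of 1.08 ± 0.60 in EXO against BLM (SE; limma, adjusted p = 0.774). The mouse has 3 near-identical Dsg1 genes, and the split between Dsg1a, Dsg1b (0.22 to 2.72 FPKM) and Dsg1c (0 to 0.37 FPKM) is uncertain.

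Dsg3, the basal desmoglein targeted in pemphigus vulgaris, had 20.7, 28.9 and 53.5 FPKM in EXO1 to EXO3, against 14.8, 6.06 and 15.7 FPKM in BLM1 to BLM3. In NORMAL1 to NORMAL3 it had 12.8, 5.94 and 43.2 FPKM. All EXO values were above all BLM values, but the change of 1.42 ± 0.66 did not pass (SE; limma, adjusted p = 0.736, and 0.193 with the block). Scaled to keratinocyte markers it was 0.39. Dsg1a and Dsg3 together made up 92.8% to 95.5% of desmoglein FPKM in EXO, 88.8% to 91.7% in BLM and 91.7% to 97.0% in NORMAL. Dsg2, the desmoglein of simple epithelia and heart, ranged from 1.64 to 5.11 FPKM in EXO, from 1.07 to 3.56 FPKM in BLM and from 0.31 to 4.91 FPKM in NORMAL. Dsg4, the desmoglein of the hair shaft, had 0.05, 0 and 0.30 FPKM in EXO1 to EXO3, 0.09, 0 and 0.20 FPKM in BLM1 to BLM3, and 0, 0 and 0.66 FPKM in NORMAL1 to NORMAL3, and did not pass the filter.

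Dsc3, the desmocollin of basal layers, had 18.2, 22.8 and 96.9 FPKM in EXO1 to EXO3, 9.57, 2.72 and 21.7 FPKM in BLM1 to BLM3, and 11.03, 6.25 and 27.6 FPKM in NORMAL1 to NORMAL3. EXO3 was far above all other libraries, and EXO1 lay below BLM3. The change was 1.88 ± 0.79 in EXO against BLM (SE; limma, adjusted p = 0.696, and 0.0850 with the block) and 0.91 when scaled to keratinocyte markers. Dsc3 made up 95.6%, 94.8% and 97.3% of desmocollin FPKM in EXO1 to EXO3, 80.6%, 73.5% and 91.6% in BLM1 to BLM3, with 95.5%, 92.3% and 92.8% in NORMAL1 to NORMAL3. The BLM shares were below those of both other groups, a ratio chosen after its values were seen. Dsc2 ranged from 0.33 to 2.14 FPKM over the 9 libraries, and Dsc1, the desmocollin of upper layers, from 0.03 to 0.91 FPKM.

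All 6 plaque genes passed the filter, and 4 of them averaged over 40 FPKM. Pkp3, a plakophilin present in many epithelia, had 94.4, 85.5 and 112 FPKM in EXO1 to EXO3, 88.5, 24.7 and 92.6 FPKM in BLM1 to BLM3, and 47.4, 15.0 and 141 FPKM in NORMAL1 to NORMAL3. Dsp, the link to keratins, had 60.8, 66.5 and 148 FPKM in EXO, 45.4, 13.2 and 68.6 FPKM in BLM, and 40.8, 16.3 and 99.4 FPKM in NORMAL. Jup, which encodes plakoglobin, had 51.1, 37.9 and 67.6 FPKM in EXO, 42.3, 12.5 and 47.9 FPKM in BLM, and 35.4, 8.46 and 60.9 FPKM in NORMAL. The groups overlapped in all of them. Pkp1, whose loss in humans causes fragile skin, ranged from 66.9 to 185 FPKM in EXO, from 18.2 to 80.2 FPKM in BLM and from 15.7 to 137 FPKM in NORMAL. The changes of these 4 genes lay between -0.22 and 0.32 in BLM against NORMAL and between 0.70 and 1.26 in EXO against BLM (limma, adjusted p from 0.980 to 0.995 and from 0.786 to 0.875). Scaled to keratinocyte markers, the changes in EXO against BLM lay between -0.36 and 0.20. Pkp4 ranged from 7.14 to 18.0 FPKM over the 9 libraries, and Pkp2, best known from heart muscle, from 0.68 to 1.80 FPKM. Dsp shares 499 of its 9659 exonic bases with Gm10129 on the opposite strand, which was at most 3.41 FPKM.

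The plakins of the cornified envelope, the protein shell of dead keratinocytes, overlapped between all groups. Ppl (periplakin) had 22.3, 34.3 and 75.2 FPKM in EXO1 to EXO3, 36.2, 11.03 and 36.9 FPKM in BLM1 to BLM3, and 14.9, 7.99 and 48.7 FPKM in NORMAL1 to NORMAL3. Its change was 0.42 ± 0.70 in BLM against NORMAL and 0.63 ± 0.70 in EXO against BLM (SE; limma, adjusted p = 0.968 and 0.885). Evpl (envoplakin) ranged from 19.1 to 32.2 FPKM in EXO, from 7.42 to 31.9 FPKM in BLM and from 4.66 to 32.9 FPKM in NORMAL.

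Perp and Cdsn, both genes of desmosome adhesion, were higher in every EXO library than in any BLM library, as were summed basal keratinocyte markers. Perp had 578, 808 and 1145 FPKM in EXO1 to EXO3, against 426, 180 and 537 FPKM in BLM1 to BLM3. In NORMAL1 to NORMAL3 it had 345, 173 and 903 FPKM. EXO and BLM did not overlap, yet the change of 1.23 ± 0.63 did not pass (SE; limma, adjusted p = 0.771), and scaled to keratinocyte markers it was 0.15. Perp alone made up 49.2% to 55.3% of the summed FPKM of all 49 genes in EXO, 43.7% to 50.9% in BLM and 48.7% to 53.6% in NORMAL.

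Cdsn (ENSMUSG00000039518, GRCm38 chr17:35552128-35557180, plus strand) encodes corneodesmosin, an adhesive protein of the desmosomes of the outermost layer and of the hair sheath. It had 83.1, 44.3 and 70.5 FPKM in EXO1 to EXO3, against 17.2, 9.42 and 23.7 FPKM in BLM1 to BLM3, and 28.8, 9.86 and 49.5 FPKM in NORMAL1 to NORMAL3. The lowest EXO library was thus above the highest BLM library, while NORMAL3 lay within the EXO range. The group means were 66.0 ± 19.8 FPKM in EXO, 16.8 ± 7.13 FPKM in BLM and 29.4 ± 19.8 FPKM in NORMAL (SD, n = 3 each). The change was 1.96 ± 0.57 in EXO against BLM, with an interval from 0.70 to 3.21 (SE; limma, adjusted p = 0.449, and 0.0659 with the block), and 1.35 ± 0.57 in EXO against NORMAL (limma, adjusted p = 0.997). Neither passed. Scaled to keratinocyte markers, Cdsn stood at 67.9, 30.8 and 28.5 in EXO1 to EXO3, at 15.7, 33.4 and 16.1 in BLM1 to BLM3, with 32.7, 30.9 and 27.5 in NORMAL1 to NORMAL3. EXO and BLM then overlapped through BLM2, and the change was 0.91. The ratio of Cdsn to Perp was 0.144, 0.0549 and 0.0616 in EXO, 0.0404, 0.0523 and 0.0441 in BLM, and 0.0833, 0.0571 and 0.0548 in NORMAL, lowest in the BLM libraries.

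**Figure D4:**
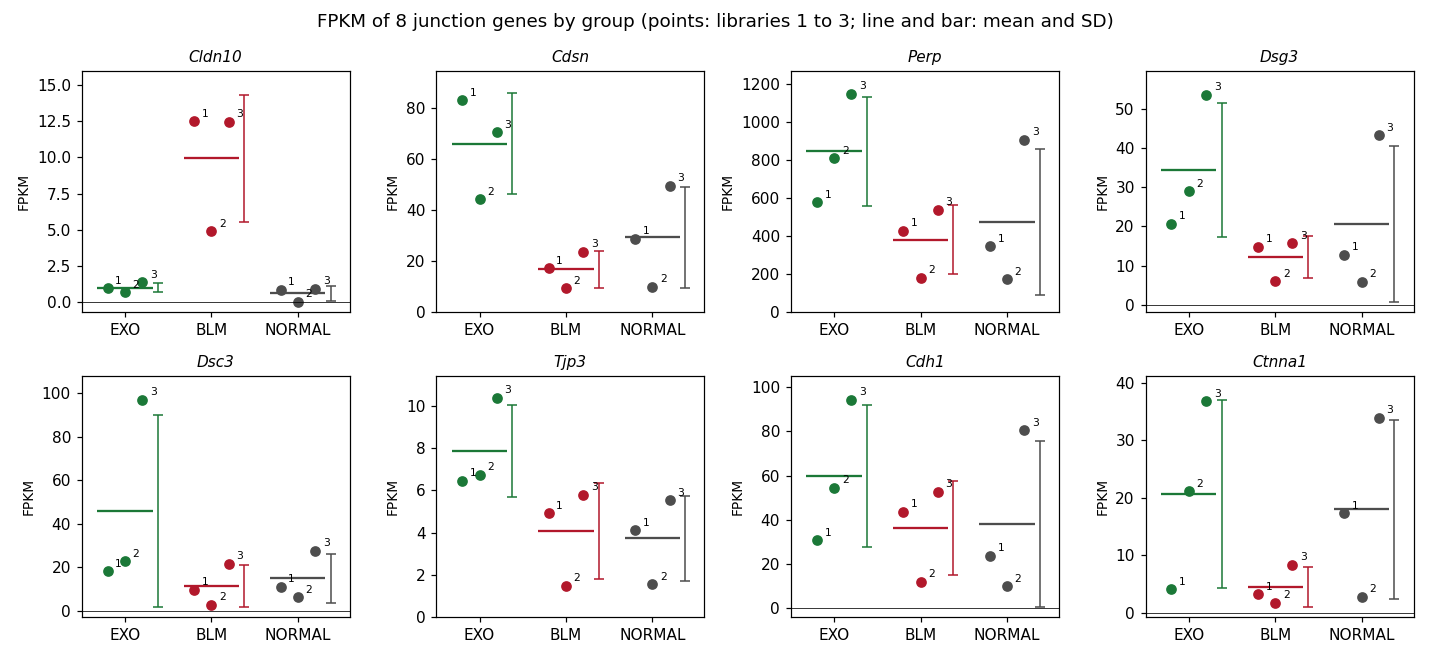
FPKM (y axis) of Cldn10, Cdsn, Perp, Dsg3, Dsc3, Tjp3, Cdh1 and Ctnna1 in EXO, BLM and NORMAL skin, with a point for each library marked 1 to 3, a line at the mean and a bar for the SD. BLM alone is high for Cldn10, EXO lies above BLM for Cdsn, Perp, Dsg3 and Tjp3, and the NORMAL libraries spread widely in most panels.

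RefSeq also gives Cdsn a pair of starts, shown here with the same E-box in capitals, since Cdsn had the largest positive change of EXO against BLM among the 31 genes. The upstream window lies at chr17:35542851-35543150 and the one at the start of the annotated gene at chr17:35551878-35552177, both on the plus strand of GRCm38.p6. Each holds 1 E-box.
Cdsn upstream start: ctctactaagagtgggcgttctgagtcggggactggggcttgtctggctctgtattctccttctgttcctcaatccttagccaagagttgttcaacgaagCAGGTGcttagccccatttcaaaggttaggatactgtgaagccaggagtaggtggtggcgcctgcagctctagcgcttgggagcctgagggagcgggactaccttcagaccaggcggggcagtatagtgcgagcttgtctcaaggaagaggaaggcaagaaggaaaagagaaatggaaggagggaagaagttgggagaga
Cdsn downstream start: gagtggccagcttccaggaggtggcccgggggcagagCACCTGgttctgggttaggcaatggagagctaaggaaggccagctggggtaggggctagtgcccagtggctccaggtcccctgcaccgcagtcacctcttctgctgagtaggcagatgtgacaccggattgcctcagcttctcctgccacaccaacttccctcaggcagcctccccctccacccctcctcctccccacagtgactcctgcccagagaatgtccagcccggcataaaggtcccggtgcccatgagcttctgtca

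The classical cadherins and alpha-catenin overlapped between all groups in their levels, while some of their ratios did not. Cdh1, E-cadherin, had 30.6, 54.5 and 94.2 FPKM in EXO1 to EXO3, 43.7, 12.0 and 52.7 FPKM in BLM1 to BLM3, and 23.6, 9.86 and 80.6 FPKM in NORMAL1 to NORMAL3. The groups overlapped, and the change was 0.17 ± 0.76 in BLM against NORMAL and 0.81 ± 0.76 in EXO against BLM (SE; limma, adjusted p = 0.991 and 0.859). Cdh3, the P-cadherin of basal cells and hair follicles, had 5.31, 4.55 and 13.2 FPKM in EXO, 13.3, 2.19 and 25.6 FPKM in BLM, and 4.47, 0.67 and 18.8 FPKM in NORMAL. Cdh3 lies 46.1 kb upstream of Cdh1 on the same strand. Its ratio to Cdh1 was 0.173, 0.0836 and 0.140 in EXO1 to EXO3, 0.304, 0.182 and 0.485 in BLM1 to BLM3, with 0.190, 0.0680 and 0.234 in NORMAL1 to NORMAL3. The EXO ratios were below all BLM ratios, while NORMAL overlapped with both. The highest ratios belonged to BLM3 and BLM1, the libraries with the largest sums of hair matrix, shaft and inner root sheath genes. Summed FPKM of 5 outer root sheath and companion layer genes was instead highest in NORMAL3 (1988), above BLM3 (1443) and BLM1 (729). The part of the follicle in the ratio was not tested.

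Ctnna1, alpha-catenin, which ties cadherins to actin, had 4.06, 21.1 and 36.8 FPKM in EXO1 to EXO3, 3.23, 1.73 and 8.32 FPKM in BLM1 to BLM3, and 17.3, 2.80 and 33.9 FPKM in NORMAL1 to NORMAL3. The 2 low libraries outside BLM, EXO1 and NORMAL2, overlapped with it. The change was -1.50 ± 0.89 in BLM against NORMAL and 1.77 ± 0.89 in EXO against BLM (SE; limma, adjusted p = 0.785 and 0.769), and neither passed. Relative to Cdh1, Ctnna1 stood at 0.133, 0.388 and 0.390 in EXO, 0.0739, 0.144 and 0.158 in BLM, and 0.734, 0.284 and 0.421 in NORMAL. The BLM ratios were below all NORMAL ratios, and EXO1 lay among the BLM ratios. These ratios were chosen after the values were seen, from more that were computed. Dsc3 over Dsg3, Cldn4 over Cldn1 and Dsp over Jup overlapped in every comparison. Jup over Krt14, a basal keratinocyte marker, did not overlap in any. It was 0.0409 to 0.0422 in BLM, 0.0293 to 0.0354 in NORMAL and 0.0195 to 0.0282 in EXO. Cdh1 over Krt14 and Cldn12 over Cldn1 were lower in all EXO than in all BLM libraries. Cldn5 over the endothelial gene Cdh5 was higher there. Perp, Dsp and Pkp1 over Krt14 overlapped in every comparison.

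**Figure D5:**
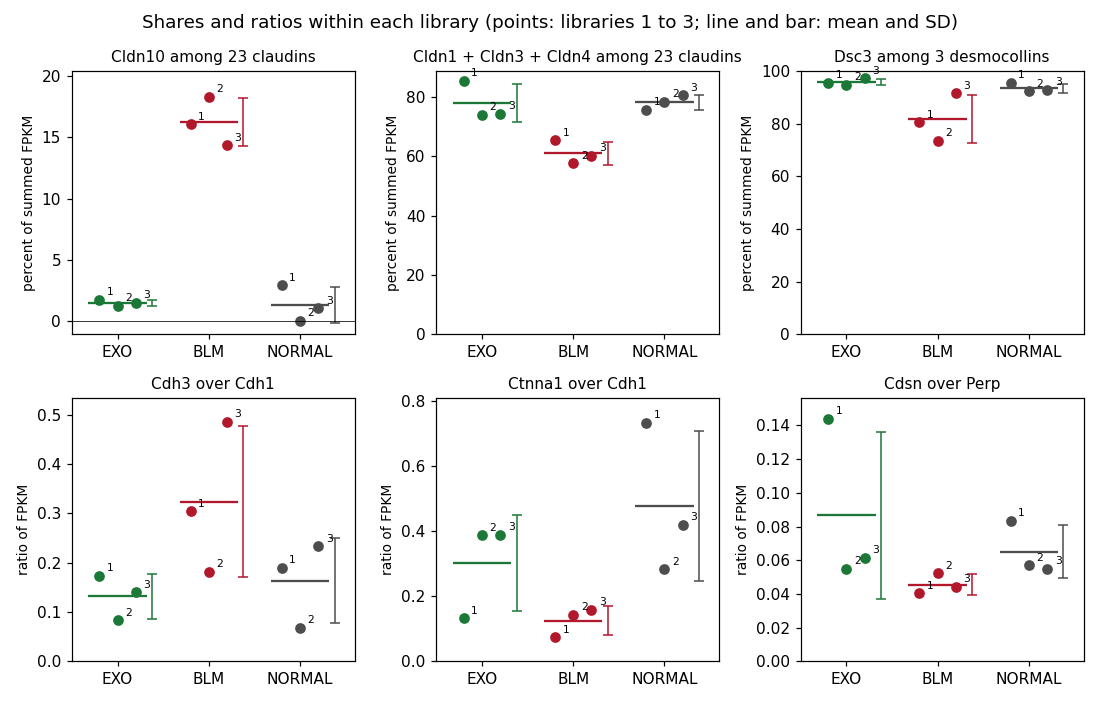
Shares and ratios of FPKM within each library (y axes) for Cldn10 and for Cldn1, Cldn3 and Cldn4 among all claudins, Dsc3 among desmocollins, Cdh3 over Cdh1, Ctnna1 over Cdh1 and Cdsn over Perp, with points for libraries 1 to 3, a line at the mean and a bar for the SD. Cldn10 made up 14.4% to 18.3% of claudin FPKM in BLM, against 0% to 2.90% in NORMAL, and Dsc3, Ctnna1 over Cdh1 and Cdsn over Perp were lower in all BLM than in all NORMAL libraries.

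Other junction genes, a list of 36 of which 31 passed the filter, were also without a call. None passed the adjusted threshold in any comparison (limma, with or without the block). At an unadjusted p below 0.05 there was 1 in BLM against NORMAL (Vcl), 1 in EXO against BLM (Cdh13) and 1 in EXO against NORMAL (Cdh13), or 3.23% each, beside 7.37%, 6.84% and 2.33% of all genes. Vcl, vinculin, an actin linker also of muscle, had a change of -1.11 ± 0.43 in BLM against NORMAL (SE; limma, adjusted p = 0.644). In that comparison BLM lay below NORMAL without overlap for Vcl and Cdh13 (6.45%, beside 7.52% of all genes). It lay above for Jam3 (3.23%, beside 2.87%). Cdh13, T-cadherin, had a change of 1.54 ± 0.37 in EXO against BLM (SE; limma, adjusted p = 0.301, and 0.0659 with the block) and of 0.89 ± 0.37 in EXO against NORMAL (adjusted p = 0.997). Scaled to keratinocyte markers, its changes were 0.59 and -0.04, the second with the other sign. Over the 31 genes the median change was 0.06 in BLM against NORMAL, 0.37 in EXO against BLM and 0.48 in EXO against NORMAL, beside -0.03, 0.22 and 0.17 over all genes. After scaling to keratinocyte markers, 29 of the 36 passed the filter and their medians were 0.12, -0.39 and -0.20, beside -0.01, -0.60 and -0.60 over all genes, so the sign turned in both comparisons of EXO.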

How the data were processed

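Total RNA of 9 mouse skin libraries had been sequenced, and the authors deposited FPKM for 55382 genes in a single table. The submitters' processing notes name cutadapt (no version), HISAT2 2.0.4, StringTie 1.3.4d and mm9. Annotation release and strand setting: not given in the sources used here. Such values are relative to each library's total, so a class of transcripts with a large share lowers all others. The table holds no counts, so count models were not run and the depth is unknown. Groups came from the labels. The 49 genes were found by symbol, and their identifiers were all found in GENCODE M21, which gave the GRCm38 coordinates. Promoter windows are from RefSeq on GRCm38.p6.

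Genes with at least 1 FPKM in at least 3 libraries (14254) were tested on log2(FPKM + 1) in 1 model of the 3 groups with limma 3.58.1 (R 4.3.3, mean-variance trend), with Benjamini-Hochberg adjustment over all of them and a threshold of 0.05. Intervals of changes are the 95% intervals of limma. After removing group means, same-numbered libraries correlated at 0.173 to 0.679 (9 pairs) and all others at -0.547 to 0.203 (18 pairs). These ranges overlap, and deviations within a group cancel, so positive values in some pairs bring negative values in others. The numbers were taken as a possible pairing, which no label states. The pairing comes from the titles and these correlations. Values with the number as a block stand beside the results they change. Keratinocyte scaling divided each library by the geometric mean of its basal and suprabasal marker genes. On simulated data of the size of BLM against NORMAL (14254 genes), the test found 1.2% of changed genes at a log2 change of 1, 36.2% at 2, 74.0% at 3 and 87.0% at 4. Changed genes were drawn only from those with a mean log2(FPKM + 1) above 2, so lower genes such as Cldn10 were not covered. Noise was independent between genes, without the shifts that genes of a library shared.

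Named with values in every library were the top gene of each role by mean level, up to 6 genes per direction and comparison with the smallest p among those whose groups did not overlap, and Cdh1, Cdh3, Dsp, Jup, Cldn1, Cldn5, Ocln, Tjp1 and Dsg4. Of the genes so chosen, 1 is not reported here, in the text or the figures, and it stays in the counts and medians. Cldn20, Dsc3 and Ctnna1 were added after their values were seen, as were the ratios. The genes, lists and rules were chosen with earlier results of these data known. Alternatives were other scalings, pseudocounts, filters and variance settings, leaving out libraries, and the block. Tables were read in pandas 2.3.3 under Python 3.11.15, with figures drawn in matplotlib 3.10.9.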

Additional observations from a re-analysis of the deposited data

How the results depend on the processing

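The count of junction genes past the adjusted threshold was 0 in each comparison. In BLM against NORMAL it became 1 with the replicate block, after quantile normalization, with median-ratio scaling, and when scaled to keratinocyte markers without or with the block, and leaving out 1 library gave 0 to 1 (1 without BLM2 or without NORMAL3). In EXO against BLM it became 1 with the replicate block, after quantile normalization, with median-ratio scaling, when scaled to keratinocyte markers without or with the block, and when only those 6 libraries entered the fit, and leaving out 1 library gave 0 to 1 (1 without NORMAL3). That gene was Cldn10 each time, which met the filter on low values through BLM, the group where it is high, so these counts are a description. With the block and no filter on low values the count was 0 in each comparison. The scaling with the block and the block without a filter were chosen after seeing the data. Cldn10 kept its direction in all 23 alternatives of both comparisons (log2 change from 2.45 to 4.34 and from -3.14 to -2.13), with adjusted p from 0.00989 to 0.760 and from 0.0109 to 0.900 (limma). It did not pass a filter of 5 FPKM. The replicate block changed no other call. Cdh13 in EXO against NORMAL turned to -0.0441 when scaled to keratinocyte markers, without and with the block, and the cause was not tested. Without the libraries numbered 2, the median change of the 31 junction genes was 0.24 in BLM against NORMAL, 0.17 in EXO against BLM and 0.37 in EXO against NORMAL. Rescaling to the same total gave 0.01 in BLM against NORMAL, and this rescaling moved the median of all genes there to -0.24. Between libraries of the same number, the median level of the 31 genes differed by 0.74, 0.47 and -0.33 in BLM against NORMAL, by -0.35, 0.98 and 0.09 in EXO against BLM and by 0.39, 1.44 and -0.24 in EXO against NORMAL (numbers 1 to 3, log2 scale), with both signs in each.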
